A study of Mus musculus with 2 samples.

Results

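The atypical chemokine receptors are 4 of the 31053 genes listed in the deposited matrices, Ackr1, Ackr2, Ackr3 and Ackr4. They were taken by symbol and followed through the endothelial cells of mouse lungs 6 h after melanoma cells or buffer entered the circulation. All mice were wild-type C57BL/6, and by the methods of the study male adults. The control library came from mice injected through the tail vein with PBS, and the metastatic library from mice given 200000 B16-F10 cells each in 100 µl of PBS. B16-F10 is a mouse melanoma line, and the study asked how lung endothelial cells respond to its arrival. Each library pooled the PECAM1-positive lung cells of 2 mice, so each group held 1 library, and no difference between the libraries has a replicate check.

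Atypical chemokine receptors bind chemokines much as the conventional receptors do but do not signal through G proteins. They internalize their ligands or carry them across cells, and so shape the chemokine gradients that conventional receptors on leukocytes and tumor cells read. ACKR1 is known from venular endothelium and red cells and binds inflammatory chemokines of both the CC and the CXC families. ACKR2 scavenges inflammatory CC chemokines and is known from lymphatic endothelium. ACKR3, also called CXCR7, takes up CXCL12, the ligand of CXCR4. ACKR4 takes up the homeostatic chemokines CCL19, CCL21 and CCL25.

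In the GENCODE M21 annotation of GRCm38 (the assembly also named mm10), Ackr3 (ENSMUSG00000044337) is at chr1:90203980-90216751 on the plus strand. Ackr1 (ENSMUSG00000037872) is at chr1:173331886-173333750 on the minus strand, where its 5′ part overlaps the 3′ end of Cadm3 on the same strand. Ackr2 (ENSMUSG00000044534) is at chr9:121898355-121911074 on the plus strand. Ackr4 (ENSMUSG00000079355) is at chr9:104084157-104126933 on the minus strand, and the whole gene lies within Acad11, a gene of fatty acid oxidation transcribed from the opposite strand. Cadm3 had 0 UMIs in every class of either library, and Acad11 is given beside Ackr4.

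The stretches of 250 bases before the RefSeq start of Ackr3 and of Ackr2 (GRCm38.p6) are shown because these members had the most UMIs and differed most in where they were found. Capitals mark the letters that matched any of the 7 motifs searched on both strands.
Ackr3, chr1:90203730-90203979, plus strand: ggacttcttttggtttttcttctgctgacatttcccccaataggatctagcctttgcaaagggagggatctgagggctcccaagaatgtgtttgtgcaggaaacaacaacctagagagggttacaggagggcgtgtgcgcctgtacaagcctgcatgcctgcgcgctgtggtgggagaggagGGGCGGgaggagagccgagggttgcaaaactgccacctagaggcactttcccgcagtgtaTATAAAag
Ackr2, chr9:121898105-121898354, plus strand: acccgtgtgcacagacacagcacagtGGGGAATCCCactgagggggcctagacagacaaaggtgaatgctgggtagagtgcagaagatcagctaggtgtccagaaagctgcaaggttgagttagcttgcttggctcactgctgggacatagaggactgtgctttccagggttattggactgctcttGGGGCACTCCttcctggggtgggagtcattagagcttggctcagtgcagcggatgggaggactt
In the Ackr3 stretch the capitals are TATAAA from base -8 to base -3, counted back from the start, and GGGCGG from base -68 to base -63. TATAAA was present in 12.4% and GGGCGG in 32.7% of the 32841 promoter stretches of that length. In the Ackr2 stretch they are 2 matches to the 10-base NF-kB motif, which 3.90% of the stretches held. The motifs TGANTCA of AP-1 (6.75% of stretches), TTCNNNGAA of STAT proteins (7.02%), ACGTG (16.6%) and TGACG (17.8%) were not matched in either. The corresponding stretches of Ackr1 and Ackr4 overlap annotated exons of the same genes and are not shown. Ackr4 held 1 TATAAA and 1 ACGTG there, and Ackr1 held none of the 7.

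The unit is the unique molecular identifier (UMI), a tag that counts each captured RNA molecule once. Totals were 67929614 UMIs in the control and 64733724 in the metastatic library. Following the filter of the study, cells were barcodes in which 1000 to 5000 genes were seen and mitochondrial genes took under 20% of UMIs, 7134 in the control and 6466 in the metastatic library, with medians of 6272.5 and 6526.5 UMIs. Only 16 barcodes were called in both libraries. Cells with 2 or more markers of a class were assigned to it: aerocytes, the large gas-exchange capillary cells (aCap-like; Ednrb, Fibin, Tbx2), veins (Slc6a2, Car8, Bst1), arteries (Gja5, Bmx, Fbln5) and general capillaries (gCap-like; Gpihbp1, Aplnr, Kit, Lpl, in cells of none of the other classes). The control library gave 5020 gCap-like, 1364 aCap-like, 247 vein-like and 63 artery-like cells, and the metastatic library 4519, 1086, 304 and 59. Another 46 and 32 cells met several classes, and 394 and 466 met none.

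The class labels were compared with markers that the assignment did not use. The 5 aerocyte genes Car4, Apln, Chst1, Emp2 and Kdr summed to 5176 CPM (UMIs per 1000000 UMIs of the class) in control and 5549 CPM in metastatic aCap-like cells, and to 946 and 978 CPM in gCap-like cells. The 5 vein genes Vwf, Nr2f2, Prss23, Vegfc and Ephb4 summed to 5122 and 4567 CPM in vein-like cells, but also to 2022 and 1743 CPM in artery-like cells. The 5 artery genes Gja4, Sox17, Efnb2, Hey1 and Dkk2 reached 1612 and 1641 CPM in artery-like cells and 1110 and 1245 CPM in gCap-like cells. The 5 general capillary genes Plvap, Sema3c, Cd93, Tek and Gpihbp1, of which the assignment used only Gpihbp1, summed to 7030 and 6456 CPM in gCap-like cells and to 5257 and 4793 CPM in vein-like cells. The artery and general capillary genes thus separated their classes less than the aerocyte and vein genes did, and the class names stand here for the marker rule. Platelet markers (Ppbp, Pf4, Gp9, Itga2b) were higher in the metastatic library, at 271 against 175 CPM in gCap-like cells and 157 against 76.5 CPM in aCap-like cells.

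Ackr1, the receptor of venules, was almost undetected. In the control library vein-like cells held 6 UMIs in 5 of 247 cells (2.72 CPM, exact Poisson 95% interval 0.998 to 5.92). In the metastatic library they held 7 UMIs in 5 of 304 cells (2.62 CPM, 1.05 to 5.39). The vein-like levels thus overlapped between the libraries. The other 3 classes together held 1 UMI in each library, in an aCap-like cell of the control and a gCap-like cell of the metastatic library. For the 5020 control gCap-like cells, the count of 0 allows up to 0.0598% of cells with a UMI. Vein-like was therefore the class with most of the few Ackr1 molecules, and at this depth no difference between the libraries was detectable. Barcodes of 11 to 50 UMIs, too few for a cell, held 2 control and 3 metastatic Ackr1 UMIs (3.05 and 4.12 CPM). The vein-like levels were not above these values, which rest on very few UMIs. The part of RNA from outside the cells in the vein-like levels was not tested. Intervals and limits, here as elsewhere, reflect counting error alone and say nothing of how mice differ.

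Ackr2, the scavenger of inflammatory CC chemokines, was highest in aerocytes. Control aCap-like cells held 197 CPM (2229 UMIs, interval 189 to 205) and metastatic aCap-like cells 214 CPM (2011 UMIs, 205 to 224). The gCap-like level was 71.2 CPM in the control (68.3 to 74.2) and 65.8 CPM in the metastatic library (62.9 to 68.7). Vein-like cells followed with 49.0 CPM (40.2 to 59.1) and 47.5 CPM (39.6 to 56.5). Artery-like cells had 7 UMIs (14.2 CPM, 5.71 to 29.2) and 10 UMIs (20.6 CPM, 9.86 to 37.8). The order aCap-like, gCap-like, vein-like, artery-like was the same in both libraries, with no overlap between the intervals of neighbouring classes. With every cell brought to 2000 UMIs, so that depth was equal, an Ackr2 UMI was expected in 30.1% of control and 32.4% of metastatic aCap-like cells. The gCap-like shares were 12.7 and 11.6%. On all UMIs the aCap-like shares were 65.4 and 68.4%, and the most UMIs in 1 cell were 11 in the control and 18 in the metastatic library.

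Lymphatic cells, where ACKR2 is best known, were few. Barcodes with 2 of the lymphatic markers Prox1, Mmrn1 and Reln numbered 10 in the control and 23 in the metastatic library and held 12 and 9 Ackr2 UMIs. These are 154 CPM (79.6 to 269) and 55.7 CPM (25.5 to 106). In aCap-like cells the same 3 markers summed to 3.97 and 10.7 CPM.

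Ackr3, the CXCL12 scavenger, was highest in veins. Vein-like cells held 204 CPM in the control (451 UMIs, interval 186 to 224) and 205 CPM in the metastatic library (549 UMIs, 188 to 223). The gCap-like level was 40.5 CPM (1300 UMIs, 38.3 to 42.8) and 59.9 CPM (1813 UMIs, 57.1 to 62.7). The aCap-like level was 14.6 CPM (12.4 to 17.0) and 19.2 CPM (16.5 to 22.2). Vein-like cells therefore stood above gCap-like cells, and these above aCap-like cells, in both libraries and with no overlap of intervals. Artery-like cells had no fixed place: their 21 control UMIs (42.6 CPM, 26.4 to 65.1) overlapped the gCap-like interval, and their 4 metastatic UMIs (8.22 CPM, 2.24 to 21.1) overlapped the aCap-like interval. One control artery-like cell carried 14 of the 21 UMIs. Of the vein genes it held 15 UMIs of Vwf, 5 of Nr2f2 and 1 of Car8. Of the artery genes it held 2 UMIs of Efnb2, 1 of Bmx and 1 of Fbln5. Vwf was also high in control artery-like cells, at 1813 CPM against 2332 CPM in vein-like cells.

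Ackr3 was carried by a larger share of vein-like than of capillary cells. On all UMIs, 948 of 5020 control and 1131 of 4519 metastatic gCap-like cells had a UMI. On all UMIs, 154 of 247 control vein-like cells (62.3%, Clopper-Pearson 95% interval from 56.0%) and 183 of 304 metastatic vein-like cells (60.2%, from 54.5%) had a UMI. At 2000 UMIs per cell the vein-like shares were 28.8 and 29.5%, the gCap-like shares 7.36 and 10.0%, and the aCap-like shares 2.54 and 3.09%. Cells that met several classes also carried it, with 67 UMIs in 46 control cells and 76 UMIs in 32 metastatic cells.

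Ackr4, the scavenger of CCL19, CCL21 and CCL25, was higher in gCap-like cells than in aCap-like or vein-like cells. The gCap-like level was 14.1 CPM in the control (454 UMIs, interval 12.9 to 15.5) and 23.7 CPM in the metastatic library (718 UMIs, 22.0 to 25.5). The aCap-like level was 4.24 CPM (48 UMIs, 3.12 to 5.62) and 9.91 CPM (93 UMIs, 8.00 to 12.1). Vein-like cells had 3 and 7 UMIs (1.36 and 2.62 CPM), and artery-like cells 4 and 11 (8.11 and 22.6 CPM). The gCap-like level exceeded the aCap-like and vein-like levels in both libraries without overlap, whereas the artery-like interval overlapped that of gCap-like cells in both. Ackr4 had 3 and 7 UMIs in the vein-like cells where Ackr3 was highest.

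**Figure D1:**
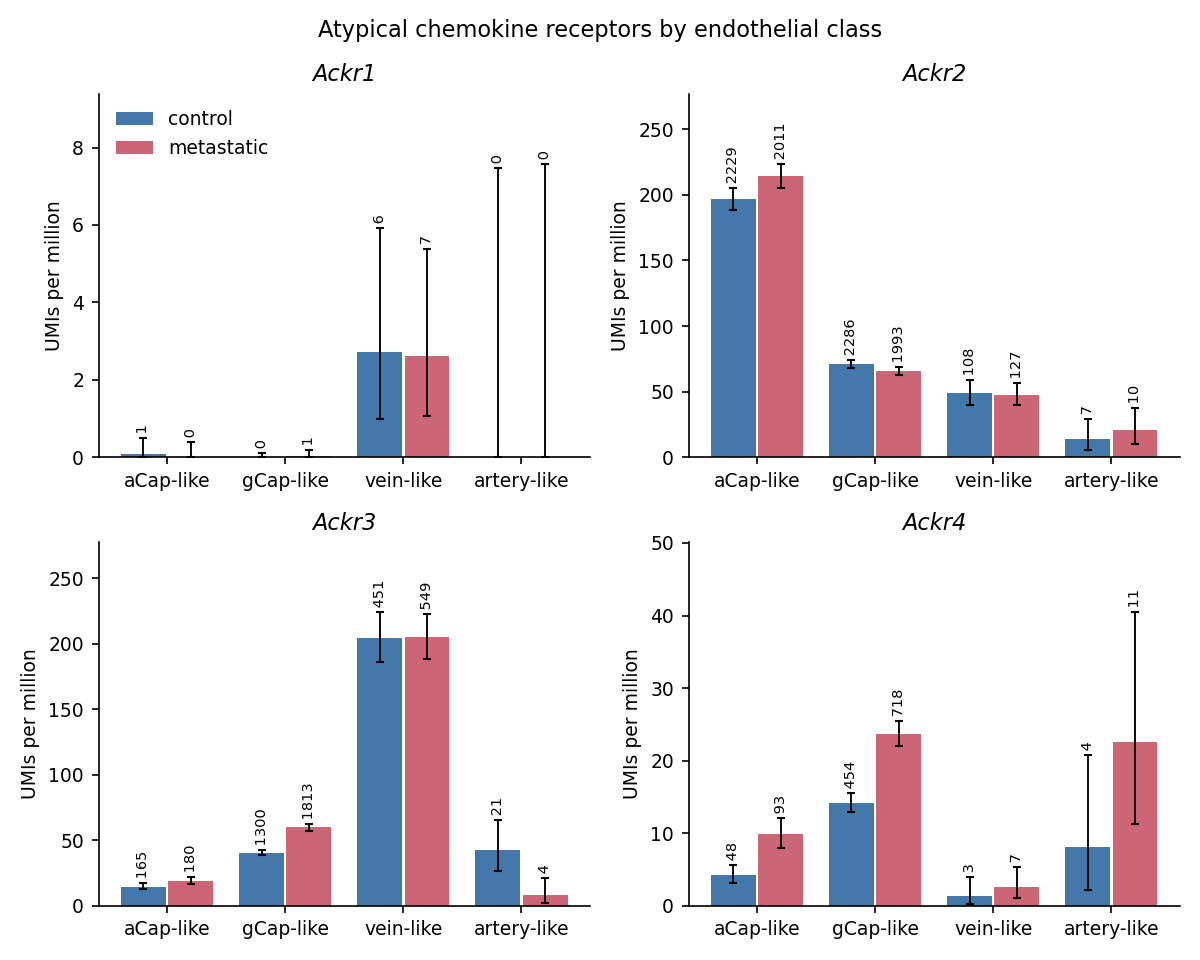
Each panel shows 1 receptor as CPM (linear axis from 0) in the 4 endothelial classes, with control in blue and metastatic in red. Bars are class sums of 1 library, whiskers exact Poisson 95% intervals, and the numbers above them UMIs. Ackr2 is highest in aCap-like cells (197 and 214 CPM), Ackr3 in vein-like cells (204 and 205 CPM), and Ackr1 does not exceed 7 UMIs in any class.

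**Figure D2:**
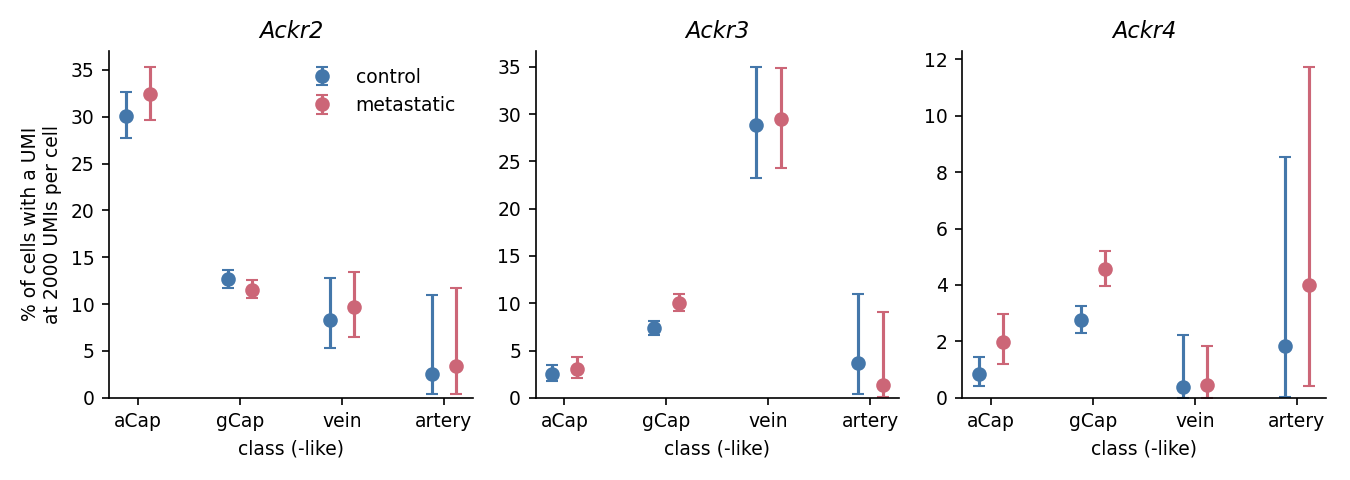
The share of cells with a UMI of Ackr2, Ackr3 or Ackr4 when every cell is brought to 2000 UMIs, by class, in control (blue) and metastatic (red) cells. Whiskers are Clopper-Pearson 95% intervals. The gCap-like shares of Ackr3 (7.36 and 10.0%) and Ackr4 (2.75 and 4.56%) stand apart between the libraries, and the vein-like shares of Ackr3 (28.8 and 29.5%) overlap.

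Barcodes with leukocyte markers held few UMIs of the members. The 21 control and 28 metastatic barcodes with T or NK cell markers (median 6228 and 5784 UMIs) held 0 UMIs of any member in the control, and 1 of Ackr2 and 1 of Ackr3 in the metastatic library. Being few, they bound the background only loosely: 0 UMIs in the control barcodes allow up to 23.0 CPM at 3 counts. That limit is below the gCap-like levels of Ackr2 and Ackr3 in either library and above the control level of Ackr4. Ackr4 also had 0 UMIs in barcodes with B cell, neutrophil, or monocyte or macrophage markers. For the 28 control and 34 metastatic monocyte or macrophage barcodes this allows up to 8.09 and 5.89 CPM. These limits are below the gCap-like levels of Ackr4 (14.1 and 23.7 CPM). The same barcodes held 2 UMIs of Ackr3 in the control and 1 of Ackr2 in the metastatic library. Barcodes of 11 to 50 UMIs, too few for a cell, gave 16.8 and 16.5 CPM for Ackr2, 18.3 and 22.0 CPM for Ackr3, and 4.57 and 5.49 CPM for Ackr4. The 50 control and 53 metastatic barcodes with pericyte markers held 62.7 and 80.7 CPM of Ackr2 and 21.6 and 36.1 CPM of Ackr3. Their Ackr4 was at 8.65 and 23.4 CPM. Of them, 35 and 31 were also gCap-like. Barcodes with fibroblast markers (40 and 43) held 34.7 and 45.8 CPM of Ackr2, and 22 and 15 of them were also gCap-like. The 13 and 14 with epithelial markers held 0 UMIs of any member. The part of endothelial RNA in these levels was not tested.

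The metastatic library was then set against the control class by class. A gene was tested where it had at least 10 CPM in either library and 20 UMIs over both, and it was called when its log2 ratio of metastatic over control CPM lay beyond 0.32 in either direction. In gCap-like cells 8289 genes were tested, of which 7.34% were called higher and 3.93% lower in the metastatic library. Of the 3 members tested there, 2 were called higher and 0 lower. In aCap-like cells 1 of 2 tested members was called higher and 0 lower, against 7.84 and 4.37% of 8347 genes. In vein-like cells 0 of 2 were called in either direction, against 17.6 and 12.9% of 8606 genes. In artery-like cells the only member tested was called lower, against 20.1% of 6376 genes called lower and 26.3% called higher. The background was thus larger in the classes with fewer cells. The median log2 ratio over all genes tested was 0.02 in each of the 4 classes.

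Ackr3 and Ackr4 were higher in metastatic gCap-like cells. For Ackr3 the difference between 40.5 and 59.9 CPM was a log2 ratio of 0.56 (exact conditional binomial 95% interval 0.46 to 0.67), above 97.8% of the genes tested. For Ackr4 the difference between 14.1 and 23.7 CPM was a log2 ratio of 0.75 (0.57 to 0.92), above 98.9% of the genes. Neither pair of intervals overlapped. Acad11, which encloses Ackr4, was at 6.54 and 8.06 CPM (log2 ratio 0.30, 0.03 to 0.57). Cells with 3 or more Ackr3 UMIs numbered 66 of 5020 in the control and 151 of 4519 in the metastatic library, and the most in 1 cell were 9 and 20. For Ackr4 these cells numbered 8 and 21. At 2000 UMIs per cell the share with an Ackr3 UMI was 7.36% (6.65% at the lower bound) in the control and 10.0% (from 9.18%) in the metastatic library, and that with an Ackr4 UMI 2.75% (from 2.31%) and 4.56% (from 3.96%). Without the cells that carried markers of another cell type, platelets among them, the log2 ratios were 0.56 and 0.77. Restricted to cells without a UMI of any aCap, vein or artery marker, they were 0.52 (0.39 to 0.65) and 0.73 (0.52 to 0.95).

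In aCap-like cells Ackr3 (14.6 and 19.2 CPM) was below its level in barcodes with 11 to 50 UMIs (18.3 and 22.0 CPM, on 12 and 16 UMIs). Ackr4 was below that level in the control (4.24 against 4.57 CPM, on 3 UMIs). In the metastatic library it was above (9.91 against 5.49 CPM, on 4 UMIs). The most Ackr3 UMIs in 1 aCap-like cell were 8 and 12, and 5 and 13 cells held 3 or more. The part of free RNA in these levels was not tested. Ackr3 had a log2 ratio of 0.40 (0.08 to 0.71), above 94.8% of the genes tested. In cells with all 3 aerocyte markers its levels were 8.53 and 10.2 CPM and the ratio was 0.26 (-0.24 to 0.75), which is no longer called. Ackr4 had a log2 ratio of 1.23 (0.71 to 1.76), but at 9.91 CPM it missed the 10 CPM filter and is not among the genes tested. Without cells that carried markers of another type, the ratios were 0.52 for Ackr3 and 1.46 for Ackr4. The intervals of both Ackr3 ratios, in aCap-like and gCap-like cells, overlapped.

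Vein-like cells, which carried most Ackr3 per UMI, had nearly equal levels in both libraries. The log2 ratio was 0.01 (-0.18 to 0.19), an interval that leaves out the gCap-like value of 0.56. When classes were called at 2000 UMIs per cell, the vein-like ratio was 0.24 (0.016 to 0.47). That interval overlaps the gCap-like interval in the same setting (0.41 to 0.62). In artery-like cells the log2 ratio of Ackr3 was -2.37 (-4.38 to -0.81) on 21 and 4 UMIs. Without the control cell that carried 14 of these, 7 UMIs stood against 4, with a log2 ratio of -0.80 (-3.02 to 1.17). That class also differed in its makeup, with lymphatic markers at 158 CPM and platelet markers at 148 CPM in the metastatic library against 2.03 and 14.2 CPM in the control, and the part of these in the result was not tested.

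Ackr2 differed little. Its log2 ratio was 0.12 (0.03 to 0.21) in aCap-like, -0.11 (-0.20 to -0.03) in gCap-like and -0.04 (-0.43 to 0.34) in vein-like cells, and none was called. Without cells that carried markers of another type it was 0.12, -0.10 and -0.04. The aCap-like interval included 0 under TMM scaling (0.08, -0.01 to 0.17) and without doublets (0.07, -0.02 to 0.17).

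**Figure D3:**
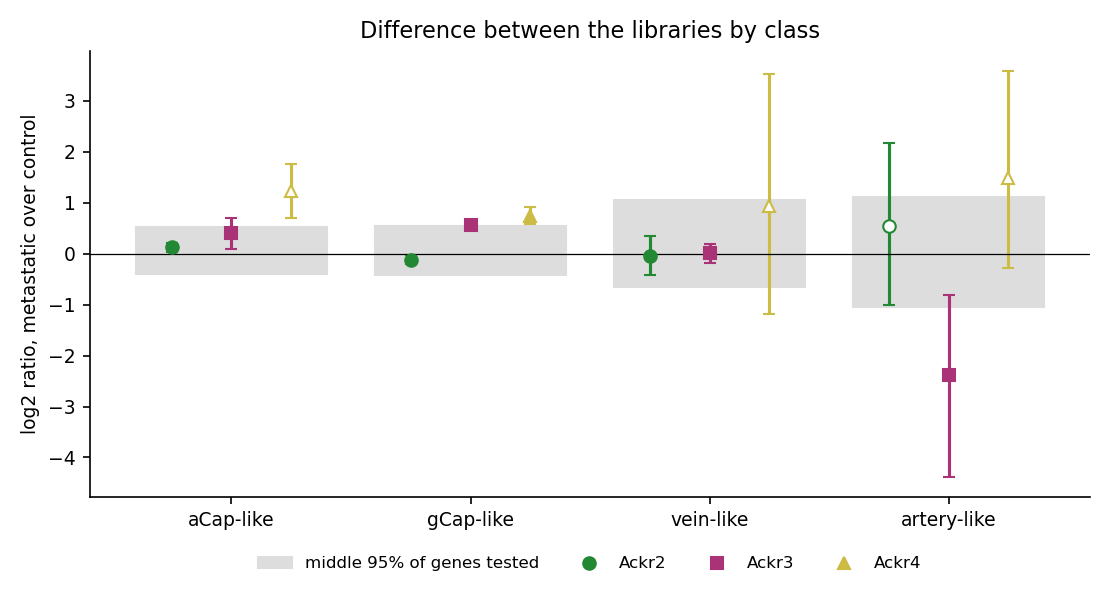
The log2 ratio of metastatic over control CPM for Ackr2 (circles), Ackr3 (squares) and Ackr4 (triangles) in each class, with exact conditional binomial 95% intervals. Open symbols did not reach the count filter, and grey boxes span the middle 95% of genes tested in the class. Ackr3 (0.56) and Ackr4 (0.75) lie above the box in gCap-like cells, and the artery-like Ackr3 value rests on 21 and 4 UMIs.

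The study described a reactive capillary state, rCap. gCap-like cells were divided by the 7 rCap genes Pim3, Inhbb, Bcl3, Osmr, Tmem252, Adamts9 and Scarb1, into those with 3 or more of them in 1 random draw of 2000 UMIs per cell (295 control and 489 metastatic cells) and the rest. Ackr3 was higher in the cells with the rCap genes, at 86.1 CPM in the control (73.6 to 100.2) and 129 CPM in the metastatic library (117 to 141), against 37.6 CPM (35.4 to 39.8) and 50.8 CPM (48.1 to 53.5) in the rest. The difference between the libraries was present in both divisions, with log2 ratios of 0.58 (0.32 to 0.84) and 0.43 (0.32 to 0.55). Ackr4 did not follow this division: it was at 11.8 CPM (7.47 to 17.7) and 18.9 CPM (14.7 to 24.01) in the cells with the rCap genes and at 14.3 CPM (13.0 to 15.7) and 24.4 CPM (22.5 to 26.3) in the rest. Its log2 ratio was 0.77 (0.59 to 0.95) in the rest and 0.68 (-0.02 to 1.43) in the cells with the rCap genes. The intervals of Ackr4 overlapped between the divisions in the control and in the metastatic library. The study chose the rCap genes on these samples, and the cells here were divided by them without use of the receptors.

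**Figure D4:**
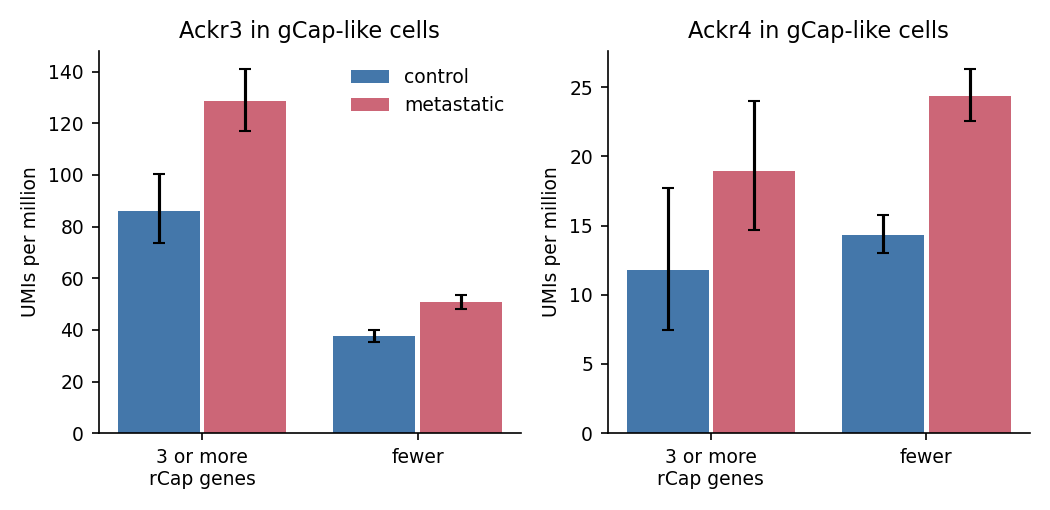
CPM of Ackr3 and Ackr4 in gCap-like cells with 3 or more of the 7 rCap genes and in the other gCap-like cells, control in blue and metastatic in red, with exact Poisson 95% intervals. For Ackr3 the cells with the rCap genes stand higher in both libraries (86.1 and 129 CPM against 37.6 and 50.8 CPM), and for Ackr4 they do not.

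Within gCap-like cells, detection of 1 member was set against detection of another. At 2000 UMIs in the control, an Ackr4 UMI was expected in 2.88% of gCap-like cells with an Ackr3 UMI (1.33 to 4.99%) and in 2.74% of those without (2.30 to 3.26%). In the metastatic library the shares were 4.28% (2.57 to 6.54%) and 4.59% (3.96 to 5.28%). The intervals overlapped in both libraries, as did those of Ackr2 in cells with and without Ackr3 (12.7 and 12.7% in the control, 11.9 and 11.5% in the metastatic library).

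Genes were compared between gCap-like cells with and without an Ackr3 UMI, as a description, since the cells are chosen by their own UMIs and those with one were deeper (median 6523.5 against 5824.5 UMIs in the control). Only 4 genes had a UMI in at least 20% of the carrying cells and a CPM ratio above 1.5 in both libraries. They were Vegfc, a lymphangiogenic growth factor (2.26-fold in the control, 2.06-fold in the metastatic library), Tmem252 (1.59 and 1.98), Pim3, a serine/threonine kinase (1.53 and 1.86), and Grrp1 (1.55 and 1.76). Of these, Pim3 and Tmem252 belong to the rCap genes above. Vegfc is also one of the vein genes used to check the classes, at 336 CPM in control vein-like and 43.1 CPM in control gCap-like cells. In the control Tmem252 (527 against 153 CPM) and Pim3 (480 against 235 CPM) were higher in vein-like than in gCap-like cells too. The Ackr3 ratio between the libraries in gCap-like cells with no UMI of a vein marker was 0.55 (0.45 to 0.66). For Ackr2 and for Ackr4 in gCap-like cells, 0 genes passed. In vein-like cells 39 genes passed for Ackr3. Those with the highest ratios included Ltbp1, a binding protein of latent TGF-β (2.78 and 3.21), Igfbp5 (1.84 and 3.91), Mgp, an inhibitor of calcification (1.66 and 3.08), Aldh1a1, an enzyme of retinoic acid synthesis (2.65 and 1.88), and Nos3, the endothelial nitric oxide synthase (2.11 and 1.89). The 5 cells a library that carried Ackr1 are too few for this comparison.

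Over the 8 sums of class and library, the genes whose log2(CPM + 1) was most like that of Ackr3, among 6457 with a mean of at least 20 CPM, were Usp3 (Pearson r 0.98), Smim10l1 (0.98), Copg1 (0.98), Igf2r (0.98) and Ifit3 (0.98), then Nfkbiz (0.97), Fhl1 (0.97), Ssh1 (0.97), Eif3m (0.97) and Gas2l1 (0.96). For Ackr2 they began with Fgf1 (0.99), Psmd1 (0.99) and Dnm2 (0.99), and Piezo2 (0.99), a mechanosensitive channel gene, was also among the first 10. For Ackr4 they began with 1700020I14Rik, Fam168b and Kif26a (each 0.98), and ended with Calcrl, the calcitonin receptor-like receptor (0.96). The 8 points share libraries and 2 of them rest on artery-like cells, so these coefficients are descriptions.

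Among the ligands of the receptors, Cxcl12 had the highest levels. This ligand of ACKR3 was highest in artery-like cells, at 1553 CPM (control) and 1688 CPM (metastatic; log2 ratio 0.12, -0.02 to 0.26). It was at 357 and 441 CPM in gCap-like cells (log2 ratio 0.30, 0.27 to 0.34), at 133 and 153 CPM in aCap-like cells and at 101 and 110 CPM in vein-like cells, below that threshold in each. Mif, a ligand of ACKR3 as well, was at 48.4 and 54.3 CPM in gCap-like cells (0.17). Of the 2 Ackr3 ligands tested in gCap-like cells, 0 were called and the median log2 ratio was 0.23, beside 0.02 over all genes. Among the 10 Ackr1 ligands, 2 were tested in gCap-like cells and 2 called higher: Ppbp (0.58) and Ccl5 (0.45), of which Ppbp is also one of the platelet markers used above. Ccl5 was also the only Ackr2 ligand of 8 tested there. Ccl25, a ligand of Ackr4, was at 16.4 and 15.6 CPM (-0.06). Cxcl11, Ccl19 and Ccl21a were not analysed here. In vein-like cells Cxcl2 had 2 UMIs in the control and 134 in the metastatic library, where 123 of the 134 were in cells with monocyte or macrophage markers and 3 cells held them all.

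The list of 11 conventional receptors also held Cd74. Of these 11 genes, 2 were tested in gCap-like cells, Cxcr4 and Cd74, and 2 called higher. Cxcr4, the signalling receptor for CXCL12, was at 9.72 and 20.1 CPM (log2 ratio 1.05, with a lower bound of 0.85), with a UMI in 241 of 5020 control and 423 of 4519 metastatic gCap-like cells. Cd74, a receptor for MIF and the invariant chain of MHC class II, was at 204 and 381 CPM (0.91, 0.86 to 0.95). In aCap-like cells Cxcr4 was at 3.36 and 11.9 CPM (1.83, 1.29 to 2.40). Both genes are also abundant in leukocytes, and T or NK cell markers (Cd3e, Cd3d, Trbc2, Nkg7; 5.58 and 9.11 CPM) moved the same way in gCap-like cells, where 0 control and 2 metastatic cells carried 2 or more of them. Their part in the result was not tested. The ratio of Cxcr4 in gCap-like cells exceeded that of Ackr3, its lower bound lying above the upper bound of 0.67. Of the 2 related receptors, Gpr182 was called higher (133 and 178 CPM, 0.42) and Ccrl2 was not (104 and 111 CPM, 0.10). Of the 5 arrestins and receptor kinases tested, 1 was called: Arrb2 (12.3 and 16.5 CPM, 0.42), while Arrb1 was at 122 and 121 CPM (-0.02).

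**Figure D5:**
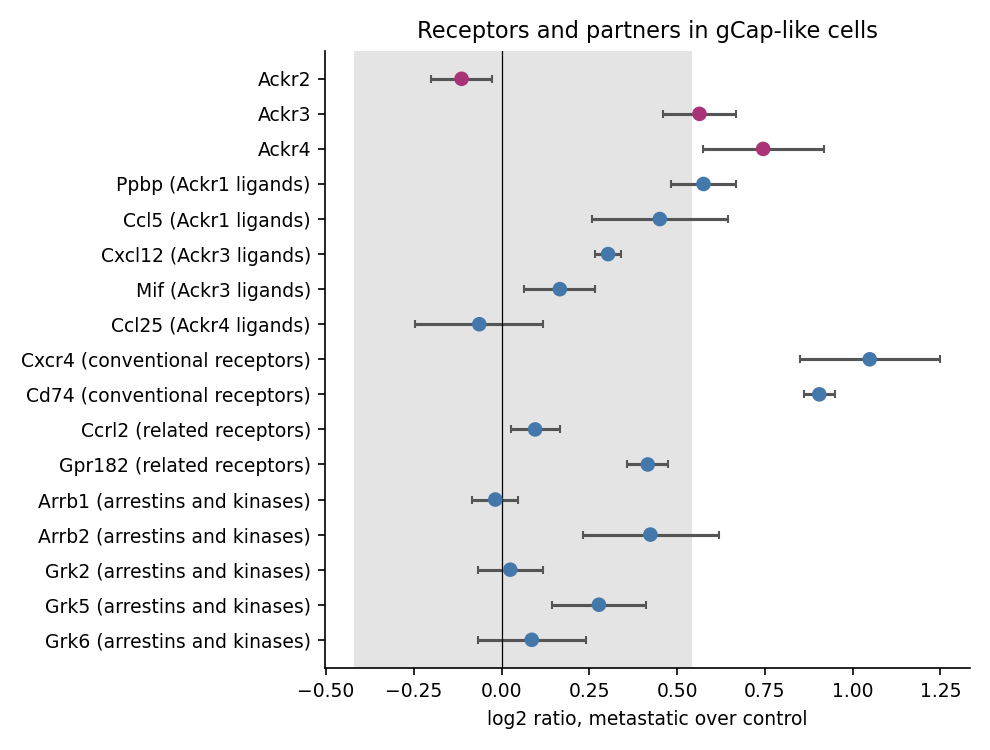
Log2 ratios of metastatic over control CPM in gCap-like cells for the members (purple) and the partner genes that passed the count filter (blue, with the list each is in), with exact conditional binomial 95% intervals. The grey band spans the middle 95% of all genes tested. Cxcr4 (1.05), Cd74 (0.91), Ackr4 (0.75), Ppbp (0.58) and Ackr3 (0.56) lie to the right of its edge at 0.54, and Arrb1 (-0.02) lies near 0.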

How the data were processed

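Lung cells were sorted for PECAM1, and each library was prepared from 2 pooled mice with the 10x Genomics 3′ kit, which the labels give as version 2; the 6794880 barcodes listed are more than known for that version, and this was not resolved. The authors deposited raw UMI counts per gene and barcode, made with Cell Ranger on mm10 (version 3.1.0 per the file headers, an earlier one in the study's methods). The counting strand and annotation release are not given in the sources used here. Counts were summed over the cells of each class and library and scaled to 1000000 (CPM). Levels have exact Poisson intervals, ratios exact conditional binomial intervals and shares Clopper-Pearson intervals at the 95% level, with zero counts bounded at 3 counts; all cover counting error only. With 1 library per group no test and no p-value was computed. Shares at 2000 UMIs are expected values over all draws, except that cells with the rCap genes were chosen in 1 draw, without the 73 control and 58 metastatic gCap-like cells that were shallower. Doublets stayed in, and an alternative removed 407 and 334. The ratio was tested on simulated data with counting error alone. Of genes simulated without a change, 0.06% in gCap-like and 1.90% in aCap-like cells still passed the 1.25-fold limit. In vein-like cells 17.1% and in artery-like cells 36.15% did. Of genes simulated with a 2-fold change, 100% were recovered in gCap-like and aCap-like, 99.5% in vein-like and 93.2% in artery-like cells. Alternatives covered the cell filters, the number of class markers, doublets, cells of other types, shared barcodes, TMM scaling and thinning. Named genes are the members, the partner lists, the 10 genes most like a member, and the 10 highest in cells carrying one. The members and lists were chosen with earlier results of these data known. Ligand symbols missing from the list were not analysed here. One marker list is not reported here. Python with numpy 2.4.6 and scipy 1.17.1 and R 4.3.3 with edgeR 4.0.16, for TMM scaling alone, were used; coordinates are GENCODE M21 and promoters RefSeq.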

Additional observations from a re-analysis of the deposited data

Results flagged for a closer look

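The log2 ratio of Ackr2 pointed in opposite directions, 0.12 in aCap-like and -0.11 in gCap-like cells. The log2 ratio of Ackr3 was 0.56 in gCap-like and 0.40 in aCap-like cells but -2.37 in artery-like cells, where 1 control cell carried 14 of the 21 UMIs. With 1 library per group, these differences between classes were not tested.

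Barcodes not called as cells, which the comparisons leave out, held more of 3 members in the metastatic than in the control library: Ackr1 at 1.16 against 0.26 CPM (22 and 5 UMIs), Ackr3 at 38.2 against 27.1 CPM (726 and 519 UMIs), and Ackr4 at 10.9 against 6.48 CPM (207 and 124 UMIs).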

How the results depend on the processing

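No paired analysis was possible because each group held 1 library, and no replicate could be left out. In gCap-like cells the log2 ratio stayed between 0.43 and 0.57 for Ackr3 and between 0.72 and 0.79 for Ackr4, with the main direction in each of 12 alternatives. The lowest Ackr3 value, 0.43, was in cells with fewer than 3 rCap genes. After classes were called at 2000 UMIs, the artery-like log2 ratio of Ackr3 turned to 0.92, and the vein-like values were 0.24 for Ackr3 and 0.58 for Ackr2; the cause was not tested. Without the 1 control cell named above, the artery-like Ackr3 value was -0.80. With 3 or more class markers, Ackr2 in aCap-like cells was at 233 and 247 CPM and Ackr3 in vein-like cells at 246 and 258 CPM; without doublets the control levels were 207 and 224 CPM. Shares with a UMI follow depth by construction. In gCap-like cells at 1000 UMIs they were 3.86 and 5.41% for Ackr3 and 1.40 and 2.34% for Ackr4, and with no thinning 18.9 and 25.03% and 7.65 and 13.0%. Genes called in gCap-like cells were 608 higher and 326 lower, 229 and 175 with at least 50 CPM, and 166 and 100 at 1.5-fold. The subtraction of free RNA gave no usable value, because the share estimated from lung epithelial genes came to 317% of control gCap-like UMIs. The following alternatives were chosen after seeing the data: classes at 2000 UMIs, cells with no other class marker or with fewer than 3 rCap genes, the mean of each cell's CPM, and the artery-like cell. Values at 2000 UMIs were first taken from 1 random draw per cell; because draws differed, expected shares, and levels over all UMIs of the chosen cells, replaced them after these values had been seen, while the choice of rCap cells and of classes at 2000 UMIs still rests on 1 draw. With 11 or fewer UMIs, Ackr1 and the artery-like and vein-like values of Ackr4 allow no statement of direction.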
